A study of Mus musculus with 8 samples.

Results

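The expression of 9 genes for G protein-coupled receptors that sense prostaglandin E2, oxysterols, peptides and lysophospholipids was compared between regulatory T cells (Treg) of the bone marrow (BM-Treg) and of the spleen (SP-Treg). The genes were Ptger1, Ptger2, Ptger4, Gpr83, Gpr183, Gpr15, Gpr18, Gpr171 and Gpr174. They were chosen by name as receptors for these ligands or as orphan receptors linked to Treg, and each matched a single gene of the 38215 in the tables. The choice was made with earlier results of these data known. Counts of these genes that passed are therefore no test against the share of all genes. The RNAseq asked how Treg that reside in the marrow differ from their splenic counterparts, with 4 libraries per tissue.

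FoxP3+ cells were sorted from B6.FoxP3-GFP mice aged 12 weeks, whose FoxP3-expressing cells are marked by green fluorescent protein. The labels give the genotype of all 8 samples as C57Bl/6, and the mice were naive. BM-Treg replicates 1 to 3 were labelled as batch 1 and female, whereas BM-Treg replicate 4 and SP-Treg replicates 1 to 4 were labelled as batch 3 and male. Batch and labelled sex therefore could not be told apart, and within batch 3 the marrow was represented by BM-Treg replicate 4 alone. The libraries were described as biological replicates, without saying whether each came from 1 mouse or from pooled mice, and p-values measure the spread between these samples. For each library 15 ng of RNA was amplified before sequencing, without molecular identifiers, and limits set by counts therefore cover counting error only.

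Totals of expected counts, the estimated numbers of reads per gene, were 17544552, 20507445, 21921252 and 12427136 for BM-Treg replicates 1 to 4. The SP-Treg replicates 1 to 4 had 12938469, 13278601, 12924964 and 14121975. Thus 3 of the BM-Treg libraries were deeper than every SP-Treg library. Gene levels are given as CPM, counts scaled to a common library size on library sizes scaled by TMM, a normalization that sets most genes to no change, and levels of different genes are compared only as FPKM, which also divides by transcript length.

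The labels were checked against marker genes. Foxp3 was between 1497 and 2081 CPM in BM-Treg and between 1272 and 1721 CPM in SP-Treg. Of 9 Treg markers 0 passed the test described below, where 8.75% of all genes tested did. This count does not show that their levels were equal. Il2ra was between 736 and 939 CPM in BM-Treg and between 848 and 1674 CPM in SP-Treg. Its log2 fold change (BM-Treg over SP-Treg) was -0.62 (SE 0.20, adjusted p = 0.0803, edgeR). Of the 9 markers 4 had a positive log2 fold change. Xist, which is expressed from the inactive X chromosome of females, was at 1229, 2267 and 2272 CPM in BM-Treg replicates 1 to 3 and at 2.63 CPM or less in the other 5 libraries. The summed level of 4 Y-linked genes (Kdm5d, Uty, Ddx3y and Eif2s3y) was 153.8, 63.3 and 2.01 CPM in BM-Treg replicates 1 to 3, 234.0 CPM in replicate 4, and between 257.9 and 285.9 CPM in SP-Treg. The libraries labelled BM-Treg replicate 1 and replicate 2 thus held Y-linked transcripts together with Xist, against the single sex of their labels. For the receptor genes, values without both libraries are given as those with BM-Treg replicates 3 and 4 alone. For the pathway genes called, the genes that passed in that fit and the signs of all are given.

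Prostaglandin E2 is a lipid made from arachidonic acid by cyclooxygenases, and it acts on T cells through receptors that raise cAMP (EP2 and EP4, encoded by Ptger2 and Ptger4) or mobilise calcium (EP1, encoded by Ptger1). Oxysterols are oxidised forms of cholesterol, and their receptor Gpr183, also known as EBI2, guides lymphocytes and dendritic cells to their places within lymphoid organs. Among the remaining receptors, Gpr174 binds lysophosphatidylserine and has been linked to restraint of Treg, Gpr15 directs Treg to the large intestine, Gpr83 is a long known marker gene of murine Treg, and Gpr171 and Gpr18 are expressed by lymphocytes.

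BM-Treg had more Ptger1 transcript and less Ptger2, Gpr183 and Gpr18 transcript than SP-Treg, each by a fold of between 1.58 and 1.66. These 4 of the 9 receptor genes, 1 higher and 3 lower in BM-Treg, passed the test at an adjusted p of 0.05 (quasi-likelihood F test of edgeR, adjusted by Benjamini-Hochberg over 13397 genes). In the same test 1172 genes passed, or 8.75% of those tested, with 499 (3.72%) higher and 673 (5.02%) lower in BM-Treg. All 9 receptor genes were kept by the filter on low counts. In bulk RNA, fewer cells that express a receptor and less transcript per cell cannot be told apart. On the FPKM scale (limma-trend on log2(FPKM + 1)) the genes called were split the other way, with 482 higher and 283 lower, and 3 receptor genes passed, without Ptger2.

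The libraries of the tissues did not overlap for 5 of the 9 receptor genes, namely Ptger1 and Gpr174, higher in BM-Treg, and Ptger2, Gpr183 and Gpr18, lower in BM-Treg. On the FPKM scale 4 of the 9 did not overlap, since Gpr174 was at 23.9 FPKM in BM-Treg replicate 2 and at 27.1 FPKM in SP-Treg replicate 4. Of all genes tested, 16.2% did not overlap on the CPM scale (7.6% higher and 8.56% lower in BM-Treg), and by FPKM 14.2% did not. With batch as a term in edgeR, 258 genes (1.93%) and 0 of the 9 receptor genes passed, and in batch 3 alone 79 of 14759 genes (0.535%) and 0 receptor genes did. Of the 9 receptor genes, 3 had an unadjusted p below 0.05 in each of these fits, where 2494 of 13397 genes did with batch as a term and 2208 of 14759 in batch 3 alone. Both fits rest on BM-Treg replicate 4, which in the second is assumed to vary like the SP-Treg, and no other tool was run for them. Using BM-Treg replicates 3 and 4 alone for the marrow, 312 genes and 1 receptor gene, Ptger1, passed. Without BM-Treg replicate 2 alone, 690 genes passed.

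**Figure D1:**
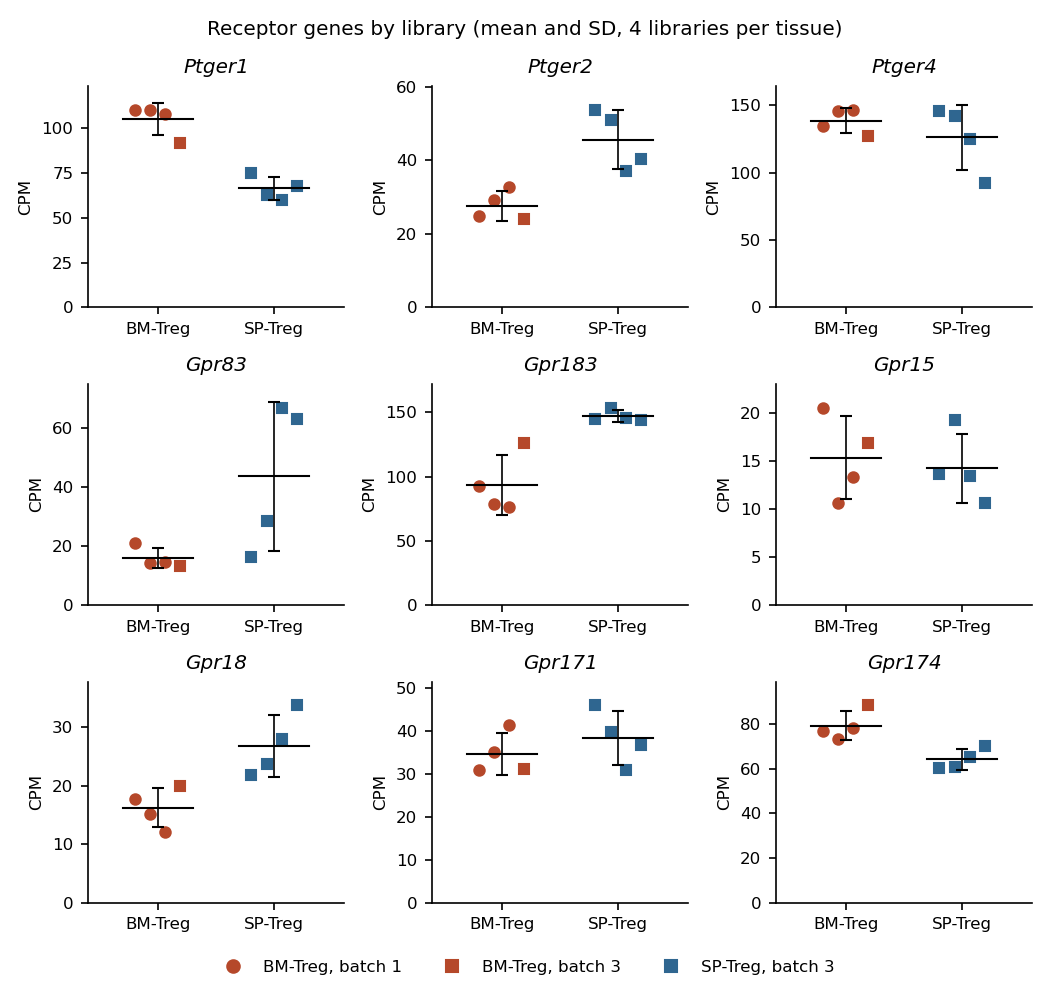
CPM of the 9 receptor genes in each library (vertical axis, from 0), by tissue, with circles for batch 1 and squares for batch 3; lines and bars are the mean and SD of 4 libraries. Ptger1 and Gpr174 lie higher and Ptger2, Gpr183 and Gpr18 lower in every BM-Treg library, and for Gpr183 BM-Treg replicate 4 (126.2 CPM) lies well above the other BM-Treg.

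Levels of the 9 genes were compared per length within each tissue. In BM-Treg the order of mean FPKM was Ptger4 (44.1 ± 4.50, SD, n = 4), Gpr174 (33.9 ± 8.75), Gpr183 (33.2 ± 6.73), Ptger1 (30.7 ± 3.98), Gpr171 (16.5 ± 2.70), Gpr18 (13.4 ± 2.40), Gpr15 (12.9 ± 3.57), Ptger2 (7.88 ± 1.37) and Gpr83 (4.79 ± 1.21). Between neighbours in this order the libraries overlapped, except that Ptger1 lay above Gpr171 in all 4 libraries with no overlap. In SP-Treg the order was Gpr183 (50.2 ± 3.14 FPKM, SD, n = 4), Ptger4 (38.4 ± 8.99), Gpr174 (22.5 ± 3.39), Gpr18 (21.1 ± 3.69), Ptger1 (18.6 ± 3.32), Gpr171 (17.6 ± 4.02), Ptger2 (12.5 ± 2.88), Gpr83 (11.8 ± 6.4) and Gpr15 (11.4 ± 2.79). Here the only neighbours without overlap were Ptger4 and Gpr174. Thus the oxysterol receptor gene was at the top of the order in SP-Treg, and Ptger4 in BM-Treg. Mean FPKM of Gpr183 in SP-Treg exceeded that of 93.3% of genes above 0, and Gpr83 in BM-Treg that of 59.8%.

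Ptger2 (ENSMUSG00000037759, chromosome 14, 44988195 to 45003820 on GRCm38) encodes the cAMP-raising receptor EP2. Its level was 24.7, 29.2, 32.8 and 24.0 CPM in BM-Treg replicates 1 to 4 and 53.8, 51.1, 37.2 and 40.4 CPM in SP-Treg replicates 1 to 4. Every BM-Treg library lay below every SP-Treg library, and SP-Treg replicates 1 and 2 were the highest. The log2 fold change was -0.72 (SE 0.15, 95% interval -1.03 to -0.41, adjusted p = 0.00749, edgeR), a lower level in 4 of 4 BM-Treg libraries. With batch as a term it was -0.93 (adjusted p = 0.067, edgeR), and with BM-Treg replicates 3 and 4 alone -0.65 (adjusted p = 0.112, edgeR). Over all alternatives its adjusted p ranged from 0.000427 to 0.134. BM-Treg replicate 4 was below the range of the SP-Treg libraries of its own batch.

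The antisense gene Gm17173 spans all of Ptger2 on the opposite strand and was also lower in BM-Treg, with 12.7 ± 4.06 against 24.1 ± 3.53 CPM (SD, n = 4) and a log2 fold change of -0.92 (SE 0.21, adjusted p = 0.0136, edgeR). Of the 3684 exon bases of Ptger2 in the GENCODE M21 annotation, 246 lie under exons of genes on the other strand. The library kit is not stated to keep strand, so that reads within those 246 bases cannot be assigned to either gene.

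Ptger4 (ENSMUSG00000039942, chromosome 15, 5206661 to 5244187), which encodes EP4, was at 134.6, 145.8, 146.7 and 127.0 CPM in BM-Treg replicates 1 to 4 and at 145.4, 142.1, 124.9 and 92.2 CPM in SP-Treg replicates 1 to 4. The tissues overlapped, with SP-Treg replicate 4 the lowest of all libraries. Its log2 fold change of 0.14 had an interval of -0.14 to 0.41 (95%) and did not pass the test (adjusted p = 0.578, edgeR), and it was 0.01 with batch as a term and 0.15 with BM-Treg replicates 3 and 4 alone. The exons of its coding transcripts share no base with another gene. Thus EP2 and EP4, which both raise cAMP, differed in their values: the interval of Ptger2 lay wholly below 0 and that of Ptger4 spanned 0, while the difference between the genes was not tested.

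Ptger1 (ENSMUSG00000019464, chromosome 8, 83666833 to 83672753), the gene of the calcium-mobilising receptor EP1, was at 110.5, 110.5, 107.9 and 92.0 CPM in BM-Treg replicates 1 to 4 and at 75.0, 62.9, 59.9 and 68.0 CPM in SP-Treg replicates 1 to 4. All 4 BM-Treg libraries were above all SP-Treg libraries, with BM-Treg replicate 4 the nearest to them. The log2 fold change was 0.66 (SE 0.11, 95% interval 0.43 to 0.89, adjusted p = 0.00194, edgeR). It was 0.47 with batch as a term (adjusted p = 0.128, edgeR) and 0.62 with BM-Treg replicates 3 and 4 alone (adjusted p = 0.0465, edgeR), and its adjusted p over the alternatives ranged from 5.78e-07 to 0.252.

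What was counted as Ptger1 was mostly not its coding transcript. A transcript annotated as a retained intron (ENSMUST00000159935) took 85.2% ± 4.93 of the gene's expected counts in BM-Treg, and for SP-Treg the share was 84.6% ± 5.79 (SD, n = 4), although such shares are uncertain for transcripts that overlap.

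Counted by its coding transcript alone (ENSMUST00000019608), Ptger1 had a log2 fold change of 0.60 and did not pass (adjusted p = 0.13, edgeR). This count was chosen after seeing the data.

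**Figure D2:**
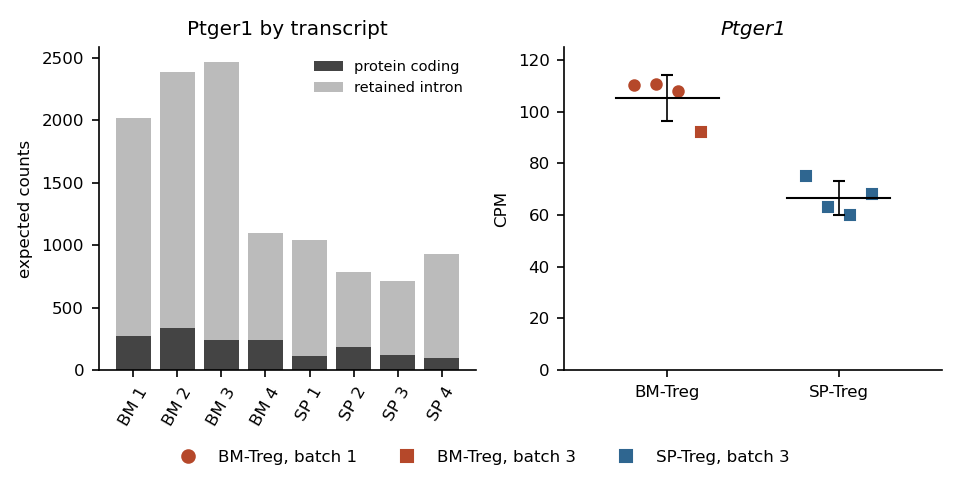
Expected counts of Ptger1 by transcript in each library (left, bars from 0; BM and SP stand for BM-Treg and SP-Treg), and CPM of Ptger1 (right) with mean and SD of 4 libraries per tissue. Most counts of Ptger1 fall on the retained intron transcript in every library, and the CPM of the tissues does not overlap.

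Gpr183 (ENSMUSG00000051212, chromosome 14, 121952331 to 121965193), the oxysterol receptor, was at 92.9, 78.5, 76.0 and 126.2 CPM in BM-Treg replicates 1 to 4 and at 144.7, 153.8, 145.8 and 144.3 CPM in SP-Treg replicates 1 to 4. The SP-Treg libraries lay close together and above all BM-Treg libraries, whereas BM-Treg replicate 4 lay well above the other BM-Treg. The log2 fold change was -0.66 (SE 0.14, 95% interval -0.96 to -0.36, adjusted p = 0.01, edgeR). With batch as a term it was -0.22 (adjusted p = 0.471, edgeR), and in batch 3 alone -0.20. In log2 CPM, BM-Treg replicates 1 to 3 were on average 0.84 below the SP-Treg mean, and BM-Treg replicate 4 was 0.22 below it. With BM-Treg replicates 3 and 4 alone for the marrow the log2 fold change was -0.52 (adjusted p = 0.148, edgeR), and the adjusted p ranged from 0.000507 to 0.599 over all alternatives. For Gpr183 the size of the difference between tissues thus cannot be told apart from batch and labelled sex. The same limit holds for the other receptor genes called, since the libraries are the same.

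Gpr18 (ENSMUSG00000050350, chromosome 14, 121911435 to 121915774) lies on the same strand as Gpr183, with 36556 bases between them, and its level was 17.7, 15.2, 12.1 and 19.9 CPM in BM-Treg replicates 1 to 4 and 21.8, 23.7, 28 and 33.7 CPM in SP-Treg replicates 1 to 4. Here too no libraries overlapped, and BM-Treg replicate 4 was the highest of its tissue. The log2 fold change was -0.73 (SE 0.18, 95% interval -1.11 to -0.35, adjusted p = 0.0194, edgeR) and -0.43 with batch as a term (adjusted p = 0.427, edgeR). Gpr18 no longer passed without BM-Treg replicate 2, BM-Treg replicate 3 or SP-Treg replicate 4 (adjusted p of 0.0644, 0.0617 and 0.0584, edgeR), nor with BM-Treg replicates 3 and 4 alone (-0.73, adjusted p = 0.135, edgeR). Its adjusted p ranged from 0.0029 to 0.501 over all alternatives. Both genes lie within Ubac2, a gene of the opposite strand, and share no exon base with it. Ubac2 was at 25.6 ± 2.64 CPM (BM-Treg) against 25.8 ± 2.13 CPM (SP-Treg) (SD, n = 4), with a log2 fold change of -0.02 (95% interval -0.28 to 0.25).

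The 250 bases upstream of the starts of the 3 receptor genes that were lower in BM-Treg are given because these genes were called in the same direction, with Gpr183 and Gpr18 close neighbours. They are from RefSeq on GRCm38.p6, where 7 of the 9 receptor genes were matched by symbol, and capitals mark CG dinucleotides. Ptger2 is at chr14:44987861-44988110 on the plus strand, Gpr183 at chr14:121965194-121965443 and Gpr18 at chr14:121915889-121916138 on the minus strand, each read 5′ to 3′ along its gene.
Ptger2: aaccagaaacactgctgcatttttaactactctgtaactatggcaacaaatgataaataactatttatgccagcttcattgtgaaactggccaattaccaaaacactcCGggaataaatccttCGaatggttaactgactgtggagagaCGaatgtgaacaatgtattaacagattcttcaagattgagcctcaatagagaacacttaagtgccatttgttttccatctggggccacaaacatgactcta
Gpr183: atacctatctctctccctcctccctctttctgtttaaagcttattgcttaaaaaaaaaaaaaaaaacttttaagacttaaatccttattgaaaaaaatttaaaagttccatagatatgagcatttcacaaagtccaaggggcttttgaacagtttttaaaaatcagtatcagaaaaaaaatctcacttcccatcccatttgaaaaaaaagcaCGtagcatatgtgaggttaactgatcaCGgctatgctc
Gpr18: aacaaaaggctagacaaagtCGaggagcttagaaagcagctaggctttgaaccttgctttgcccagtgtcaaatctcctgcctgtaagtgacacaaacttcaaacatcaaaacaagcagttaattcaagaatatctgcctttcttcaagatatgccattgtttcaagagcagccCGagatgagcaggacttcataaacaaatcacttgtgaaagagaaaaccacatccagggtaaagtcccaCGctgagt
The bases G and C made up 38% of the Ptger2 stretch, 32.0% of that of Gpr183 and 42.4% of that of Gpr18, where the median over 32851 stretches of this length was 52.4% and 17.9% were at or below the value of Gpr18. They held 3, 2 and 3 CG dinucleotides, and 37.8% of all stretches held at most 3. Among the receptor genes that did not pass, the stretches of Gpr83 and Ptger4 were each 66.8% G and C, but those of Gpr15 (31.6%) and Gpr174 (40.4%) were as low as the 3 shown, so that this content did not separate the genes called from the others. The Gpr174 stretch lies within the gene, before the start of ENSMUST00000178838. That transcript took 11.4% of the gene's counts in BM-Treg and 12.1% in SP-Treg on average, and ENSMUST00000117310, which took the most, starts elsewhere. None of 5 motifs searched on both strands was present in the 3 stretches shown: TGACG of the cAMP response element (in 17.8% of all stretches), the forkhead motif TGTTTAC (3.2%), the ETS motif CCGGAAG (6.9%), GGGCGG of KLF and SP factors (32.7%) and the TATA box TATAAA (12.4%). This says only that these letters are not in these windows.

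Gpr83 (ENSMUSG00000031932, chromosome 9, 14860210 to 14870789) had the largest fold change in size among the 9 receptor genes and did not pass the test. It was at 21, 14.3, 14.7 and 13.4 CPM in BM-Treg replicates 1 to 4 and at 16.1, 28.4, 66.9 and 62.8 CPM in SP-Treg replicates 1 to 4. SP-Treg replicate 1 lay within the BM-Treg range, and SP-Treg replicates 3 and 4 lay far above replicates 1 and 2. The log2 fold change was -1.46 with an SE of 0.46 (95% interval -2.52 to -0.39, adjusted p = 0.102, edgeR). Without SP-Treg replicate 1 it was -1.72 (adjusted p = 0.00766, edgeR), with BM-Treg replicates 3 and 4 alone -1.60 (adjusted p = 0.316, edgeR), and its adjusted p over the alternatives ranged from 0.00766 to 0.539. Of its counts, 49.4% ± 16.7 in BM-Treg and 66.5% ± 9.63 in SP-Treg (SD, n = 4) were on the longer coding transcript (ENSMUST00000034408), and no exon base of Gpr83 lies under another gene.

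The spleen libraries also differed among themselves in markers of other cells. The summed level of 7 erythroid markers was 1.94, 187.4, 453.5 and 290.8 CPM in SP-Treg replicates 1 to 4 and between 12.6 and 32.7 CPM in BM-Treg, with Hbb-bs the most abundant gene. B cell markers summed to 7.76, 106.3, 23.2 and 18.0 CPM in SP-Treg replicates 1 to 4 and to between 11.4 and 14.7 CPM in BM-Treg when Ighm was left out, which alone was between 2131 and 3295 CPM in every library. SP-Treg replicate 1, the library with the lowest Gpr83 of its tissue, thus had the lowest erythroid level of all 8 libraries, and SP-Treg replicate 2 the highest B cell level. Of the B cell markers 1 of 6 tested passed, Ebf1 (log2 fold change -2.42, adjusted p = 0.0332, edgeR), and of the erythroid markers 0 of 5 did, where 8.75% of all genes tested passed. The part of these cells in the receptor gene results was not tested.

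Levels of the other marker lists were low in both tissues, and no listed marker was at 0 in all libraries. NK cell markers summed to 0 CPM in all BM-Treg libraries, where a count of 0 allows up to 0.251 CPM in the shallowest, and to between 0.65 and 1.91 CPM in SP-Treg, led by Klrb1c. Neutrophil markers, with S100a9 the most abundant per length, were between 1.31 and 10.02 CPM in BM-Treg and between 0.22 and 17.6 CPM in SP-Treg. Macrophage markers, led by Lyz2, were between 17.8 and 26.6 CPM in BM-Treg and between 8.12 and 33.4 CPM in SP-Treg. Plasma cell markers, led by Txndc5, which many secreting cells express, were between 17.7 and 24.4 CPM in BM-Treg and between 22.8 and 50.8 CPM in SP-Treg. Txndc5 and Jchain, the joining chain of secreted antibodies, each overlapped between the tissues, and Jchain was at 0.394 CPM or less in BM-Treg and at 0.216, 24.6, 8.94 and 5.65 CPM in SP-Treg replicates 1 to 4. Sdc1 was lower in each BM-Treg library than in every SP-Treg library, at 0.093 CPM or less in the marrow and between 0.359 and 0.587 CPM in the spleen. Jchain and Sdc1 did not pass the filter on low counts and were not tested. The CD8 T cell markers Cd8a and Cd8b1 summed to between 10.9 and 12.6 CPM in BM-Treg and to between 13.2 and 41.0 CPM in SP-Treg. Of these 2 markers 1 passed, where 8.75% of all genes tested did, namely Cd8a, lower in BM-Treg (log2 fold change -2.99, adjusted p = 0.0293, edgeR). Among plasmacytoid dendritic cell markers Pacsin1 made up nearly all of the level (17.2 to 32.1 CPM) and was lower in BM-Treg (log2 fold change -0.55, adjusted p = 0.0415, edgeR), while Siglech was at 0.82 CPM or less in all libraries.

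Gpr174 (ENSMUSG00000073008, chromosome X, 107255878 to 107296769), the lysophosphatidylserine receptor, was at 76.7, 73.4, 78.2 and 88.5 CPM in BM-Treg replicates 1 to 4 and at 60.3, 60.7, 65.4 and 70.4 CPM in SP-Treg replicates 1 to 4. All BM-Treg libraries were above all SP-Treg libraries, with BM-Treg replicate 4, of the SP-Treg batch, the highest. The log2 fold change of 0.30 (SE 0.10, 95% interval 0.08 to 0.52) did not pass in edgeR (adjusted p = 0.0871) and did in DESeq2 (0.31, adjusted p = 0.0403). The size of this value depended on the method, at 0.55 with log2(FPKM + 1) (adjusted p = 0.101, limma-trend), 0.57 with log2(FPKM + 0.1) (adjusted p = 0.103, limma-trend) and 0.46 with batch as a term (adjusted p = 0.123, edgeR). With BM-Treg replicates 3 and 4 alone it was 0.40 (adjusted p = 0.136, edgeR). Its adjusted p ranged from 0.0403 to 0.232 over the alternatives. It had 7 transcripts, and ENSMUST00000117310 took 55.1% ± 7.49 of its counts in BM-Treg and 43.3% ± 22.4 in SP-Treg (SD, n = 4), where SP-Treg replicate 2 had only 9.94% on it.

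Gpr15 (ENSMUSG00000047293, chromosome 16, 58717435 to 58718724) was between 10.6 and 20.5 CPM in BM-Treg and between 10.6 and 19.2 CPM in SP-Treg. Its log2 fold change was 0.11 (95% interval -0.37 to 0.58), and its direction turned without BM-Treg replicate 1 (-0.04) or SP-Treg replicate 4 (-0.01). Gpr171 (ENSMUSG00000050075, chromosome 3, 59096448 to 59101821) was between 30.9 and 41.4 CPM in BM-Treg and between 30.9 and 45.9 CPM in SP-Treg, with a log2 fold change of -0.14 (95% interval -0.44 to 0.16). Neither gene passed the test (adjusted p = 0.817 and 0.588, edgeR). With BM-Treg replicates 3 and 4 alone their log2 fold changes were 0.11 and -0.05, and with batch as a term 0.25 and -0.30. In GENCODE M21 a stretch of 204 bases of the Gpr15 exon lies under an exon of Cpox, which was at 30.9 ± 3.91 CPM (BM-Treg) against 39.5 ± 7.76 CPM (SP-Treg) (SD, n = 4).

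Genes that overlap the receptor genes elsewhere did not pass the test. Ttc33, which overlaps Ptger4, was at 13.3 ± 0.59 CPM (BM-Treg) against 12.2 ± 1.05 CPM (SP-Treg) (SD, n = 4). Med12l, around Gpr171, was at 2.54 ± 1.02 and 2.23 ± 0.74 CPM, and the pseudogenes Gm15937 (within Ptger4) and Gm9208 (within Gpr174) were at 2.95 CPM or less on average in either tissue. The tests gave adjusted p of 0.671, 0.803, 0.761 and 0.623 for Ttc33, Med12l, Gm15937 and Gm9208 (edgeR).

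**Figure D3:**
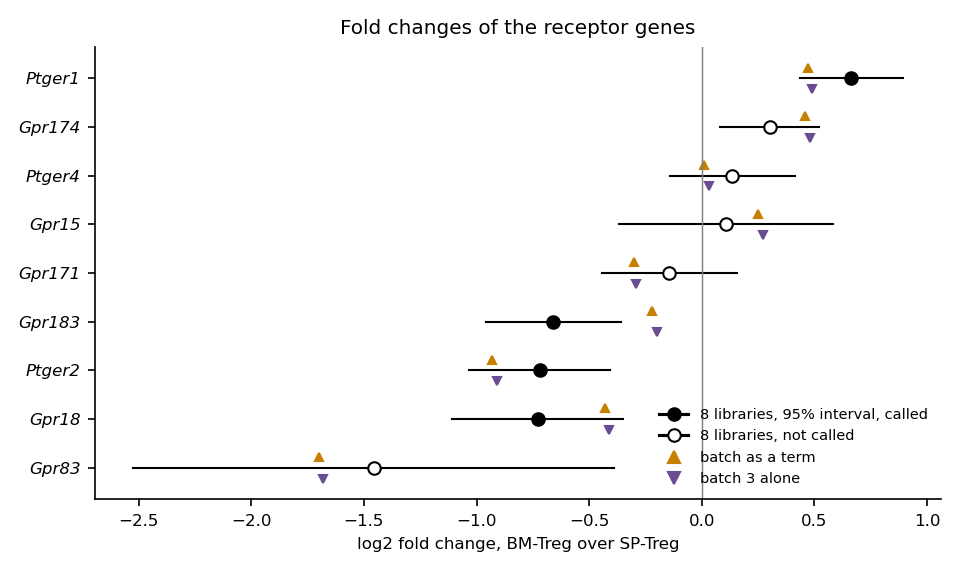
Log2 fold change of the 9 receptor genes (horizontal axis, BM-Treg over SP-Treg) with 95% intervals from 8 libraries, filled where the adjusted p passed 0.05, and the values with batch as a term and in batch 3 alone. Triangles of Gpr183 lie at -0.22 and -0.20, closer to 0 than its value of -0.66, and those of Ptger2 at -0.93 and -0.91, farther from 0 than its value of -0.72.

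The only BM-Treg library of batch 3, replicate 4, differed from the other BM-Treg in opposite ways for the genes called. BM-Treg replicate 4 was 0.62 and 0.42 above the mean of BM-Treg replicates 1 to 3 in log2 CPM for Gpr183 and Gpr18, in the direction of the SP-Treg. For Ptger1 it was 0.25 below them, also toward the SP-Treg, and for Ptger2 it was 0.26 below them, away from the SP-Treg. BM-Treg replicate 4 still lay outside the SP-Treg range for Ptger1 and Gpr174, above it, and for Ptger2, Gpr183, Gpr18 and Gpr83, below it. For Ptger4, Gpr15 and Gpr171 it lay within that range.

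Genes around these receptors were read from 7 lists of 93 genes, of which 71 were tested. The lists were also chosen with earlier results of these data known, so that their counts are no test against all genes. In these, 18 genes passed the test, 14 higher and 4 lower in BM-Treg (edgeR), where 8.75% of all genes tested did, 3.72% higher and 5.02% lower. All 18 had the same sign with batch as a term, where 5 of them passed, and 10 of the 18 passed without each library in turn. The number of pathway genes called was 11 without BM-Treg replicate 2 and 11 without BM-Treg replicate 3, and 7 with BM-Treg replicates 3 and 4 alone (Gna15, Gng2, Pde2a, Pde4a, Pde7a, Sik1 and Gpr155). All 18 kept their sign in that fit, and the adjusted p of the other 11 lay above 0.05 (edgeR). Medians of the log2 fold change are given beside that of all genes tested, -0.012, and read no further.

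In the prostanoid list, 9 of 16 genes were tested and 1 passed, where 8.75% of all genes tested did. The median log2 fold change was 0.01. Ptgir, the cAMP-raising receptor of prostacyclin, rose to 6.38 ± 1.63 CPM in BM-Treg, with SP-Treg at 2.40 ± 1.05 CPM (SD, n = 4), with a log2 fold change of 1.41 (SE 0.32, adjusted p = 0.014, edgeR) and no overlap between libraries. It did not pass with batch as a term (1.76, adjusted p = 0.0606, edgeR) or with BM-Treg replicates 3 and 4 alone (1.51, adjusted p = 0.0692, edgeR). The most abundant gene per length was Ptges3, a synthase of prostaglandin E2 that is also a chaperone partner, at 57.4 FPKM in BM-Treg and 84.6 FPKM in SP-Treg (adjusted p = 0.128, edgeR). Of the cyclooxygenase genes, Ptgs1 was at 1.61 ± 0.862 CPM (BM-Treg) against 0.443 ± 0.42 CPM (SP-Treg) (SD, n = 4), overlapped between the tissues and did not pass (log2 fold change 1.87, SE 0.62, adjusted p = 0.0774, edgeR), and Ptgs2 had no more than 4 counts in any library. Ptgdr had 0 counts in all 8. Among the receptors of prostaglandin E2, Ptger3 was left untested with 3 counts or fewer per library.

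The oxysterol list had 2 of 6 genes tested, Nr1h2 and Hsd3b7, and 0 passed in edgeR, where 0 had an unadjusted p below 0.05. Nr1h2, the nuclear oxysterol receptor LXR beta, was the most abundant, at 31.6 FPKM in BM-Treg and 24.9 FPKM in SP-Treg. Ch25h, the enzyme that starts synthesis of the Gpr183 ligand, had 0 counts in all 8 libraries, which allows up to 0.251 CPM in the shallowest, and Cyp7b1, which makes the ligand from its product, had 1 count at most. Hsd3b7, the enzyme that degrades the ligand, was at 4.53 ± 2.25 CPM (BM-Treg) against 4.47 ± 1.61 CPM (SP-Treg) (SD, n = 4).

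Of 8 genes for peptide and lysophosphatidylserine ligands, 4 were tested and 1 passed (8.75% of all genes tested did), with a median of -0.029. Abhd12, the most abundant of them, encodes a lipase that degrades lysophosphatidylserine and rose to 23.8 ± 2.39 CPM in BM-Treg, with SP-Treg at 16.0 ± 1.72 CPM (SD, n = 4; log2 fold change 0.57, adjusted p = 0.0185, edgeR). It no longer passed without BM-Treg replicate 2, BM-Treg replicate 3 or SP-Treg replicate 2, nor with batch as a term (adjusted p = 0.191, edgeR). Pcsk1n, whose product is the source of peptides proposed as ligands of Gpr83 and Gpr171, had 0 counts in all 8 libraries.

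Among the G protein subunits, 3 of 11 genes tested rose and none fell (3.72% and 5.02% of all genes), with a median of 0.076. Leaving out each library in turn gave between 2 and 5 of the subunit genes called, with 5 without SP-Treg replicate 4, and DESeq2 called 6. Gna15, an alpha subunit that couples many receptors to phospholipase C, reached 20.3 ± 3.62 CPM in BM-Treg, with SP-Treg at 9.93 ± 2.51 CPM (SD, n = 4; log2 fold change 1.03, adjusted p = 0.00458, edgeR). Gng2 had a log2 fold change of 0.65 (adjusted p = 0.00282, edgeR), and both passed with batch as a term (adjusted p of 0.0265 and 0.0376, edgeR). Gnb2 (log2 fold change 0.46, adjusted p = 0.0396, edgeR) passed in 2 of the 8 fits with a library left out. Gnai2, the most abundant, was at 218.8 FPKM in BM-Treg and 176.8 FPKM in SP-Treg (adjusted p = 0.184, edgeR), and Gnas, the subunit that stimulates cAMP synthesis, had a log2 fold change of -0.38 (adjusted p = 0.0564, edgeR).

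The cAMP relay had 19 of 20 genes tested, of which 4 rose and 3 fell (3.72% and 5.02% of all genes), with a median of 0.123. Against these 7, leaving out each library in turn gave between 4 and 6 genes called, with 4 without BM-Treg replicate 3. The number was 3 with log2(FPKM + 1), 2 with log2(FPKM + 0.1), 2 with batch as a term and 7 with DESeq2. The phosphodiesterases, which break down cyclic nucleotides, moved in both directions. Pde2a rose from 54.3 ± 6.08 to 95.8 ± 10.6 CPM (SD, n = 4; log2 fold change 0.82, adjusted p = 0.00106, edgeR), and Pde4a had a log2 fold change of 0.84 (adjusted p = 0.0182, edgeR), whereas Pde7a fell by 0.66 on the log2 scale (adjusted p = 0.00314, edgeR) and Pde4b by 0.41 (adjusted p = 0.0288, edgeR). Crem, a cAMP-responsive transcription factor, fell to 28.7 ± 3.89 CPM in BM-Treg, with SP-Treg at 49.3 ± 12.5 CPM (log2 fold change -0.78, adjusted p = 0.0107, edgeR), while Sik1, a kinase whose gene is induced by cAMP, rose from 30.9 ± 10.7 to 75.3 ± 22.9 CPM (1.28, adjusted p = 0.0271, edgeR). Adcy7, an adenylyl cyclase, had a log2 fold change of 0.36 (adjusted p = 0.036, edgeR). Pde2a, Pde4a, Pde7a and Crem passed without each library in turn. Sik1, Pde4b and Adcy7 passed in 4, 3 and 2 of the 8 fits with a library left out. With batch as a term Pde7a, Crem, Sik1, Pde4b and Adcy7 did not pass (adjusted p of 0.0898, 0.153, 0.0644, 0.443 and 0.367, edgeR). Pde2a and Pde4a did pass with that term (adjusted p of 0.0165 and 0.0483, edgeR). Prkar1a, the most abundant, was at 120.4 FPKM in BM-Treg and 137.0 FPKM in SP-Treg (adjusted p = 0.272, edgeR).

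Of the genes of receptor desensitisation, 5 of 6 were tested, with a median of 0.081. Arrb1, which encodes beta-arrestin 1, rose with a log2 fold change of 0.48 (adjusted p = 0.0479, edgeR) and passed in 1 of the 8 fits with a library left out. Grk2, a kinase of activated receptors and the most abundant, was at 60.3 FPKM in BM-Treg and 54.2 FPKM in SP-Treg (adjusted p = 0.703, edgeR).

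The other lipid and orphan receptors of lymphocytes had 21 of 25 genes tested, of which 4 rose and 1 fell (3.72% and 5.02% of all genes), with a median of 0.3. Against these 5, leaving out each library in turn gave between 3 and 4 genes of this list called. With BM-Treg replicates 3 and 4 alone 1 was called, and DESeq2 called 6. Gpr155 fell to 24.1 ± 2.94 CPM in BM-Treg, with SP-Treg at 51.5 ± 8.34 CPM (SD, n = 4; log2 fold change -1.09, adjusted p = 0.00059, edgeR) and passed with batch as a term (-1.17, adjusted p = 0.0292, edgeR). Gpr132, a receptor of oxidised fatty acids and protons, rose from 62.8 ± 10.2 to 92.1 ± 5.68 CPM (0.55, adjusted p = 0.0101, edgeR), and S1pr4, a sphingosine 1-phosphate receptor, from 82.7 ± 17.7 to 124.9 ± 5.89 CPM (0.59, adjusted p = 0.0132, edgeR), and with batch as a term neither passed (adjusted p of 0.101 and 0.132, edgeR). The lysophosphatidic acid receptor gene Lpar5 (1.06, adjusted p = 0.0257, edgeR) and the leukotriene B4 receptor gene Ltb4r1 (1.70, adjusted p = 0.0496, edgeR) passed in 3 and 0 of the 8 fits with a library left out. S1pr1, the most abundant, was at 57.8 FPKM in BM-Treg and 44.3 FPKM in SP-Treg (adjusted p = 0.105, edgeR).

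**Figure D4:**
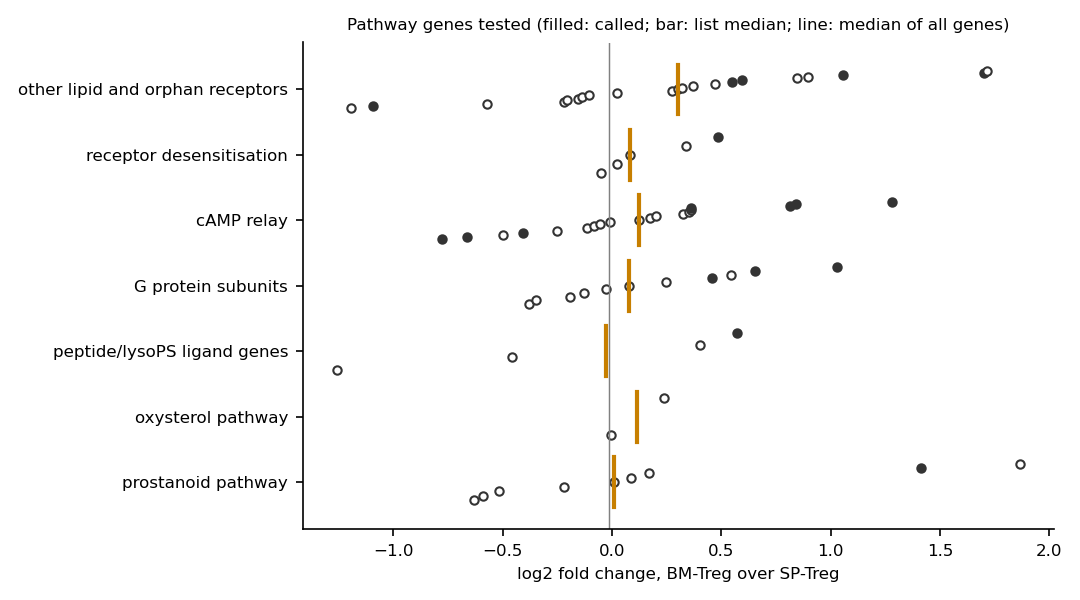
Log2 fold change of the 71 pathway genes tested (horizontal axis, BM-Treg over SP-Treg) by list; filled points passed the adjusted p threshold of 0.05, orange bars are list medians and the grey line is the median of all genes tested (-0.012). Of the filled points 14 lie to the right of 0 and 4 to the left.

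For the 4 receptor genes that passed and for Gpr83, the 3 genes most like them over the 8 libraries were found among 8555 tested genes whose log2 CPM averaged 3 or more. Likeness was measured as the root mean square difference of log2 CPM after each gene was centred on its own mean, and it says nothing of shared control. Genes chosen for likeness to a called gene share its difference between tissues by choice. Among the genes most like Ptger1 were Gmip (0.072) and Rps6ka1 (0.077), and Ptger2 was most like Slc26a2 (0.074), Cct6a (0.09) and Aga (0.094). Gpr18 was most like Slamf6 (0.125), Brip1 (0.127) and Impdh2 (0.141).

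Gpr183 was closest to Ahcy (0.081), an enzyme of methionine metabolism, followed by Mcm7 (0.143), a subunit of the replicative helicase, and Plod3 (0.151). Ahcy was at 16.6, 15.5, 14.01 and 24.6 CPM in BM-Treg replicates 1 to 4 and between 25.4 and 30.2 CPM in SP-Treg, so that it shared the high value of BM-Treg replicate 4. With batch as a term the log2 fold changes of Ahcy, Mcm7 and Plod3 were -0.16, -0.16 and -0.04.

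Gpr83 was closest to Treml2 (0.156), Nsg2 (0.161) and Lrrc32 (0.25). Treml2 was at 20.4, 45.2, 87.1 and 76.9 CPM in SP-Treg replicates 1 to 4 and between 15.7 and 25.5 CPM in BM-Treg. Lrrc32, which encodes GARP, the surface protein that holds latent TGF-beta on Treg, was at 263.6, 388.0, 674.9 and 637.3 CPM in SP-Treg replicates 1 to 4 and between 164.5 and 217.4 CPM in BM-Treg. In each of these genes SP-Treg replicate 1 was the lowest of its tissue and SP-Treg replicates 3 and 4 the highest.

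**Figure D5:**
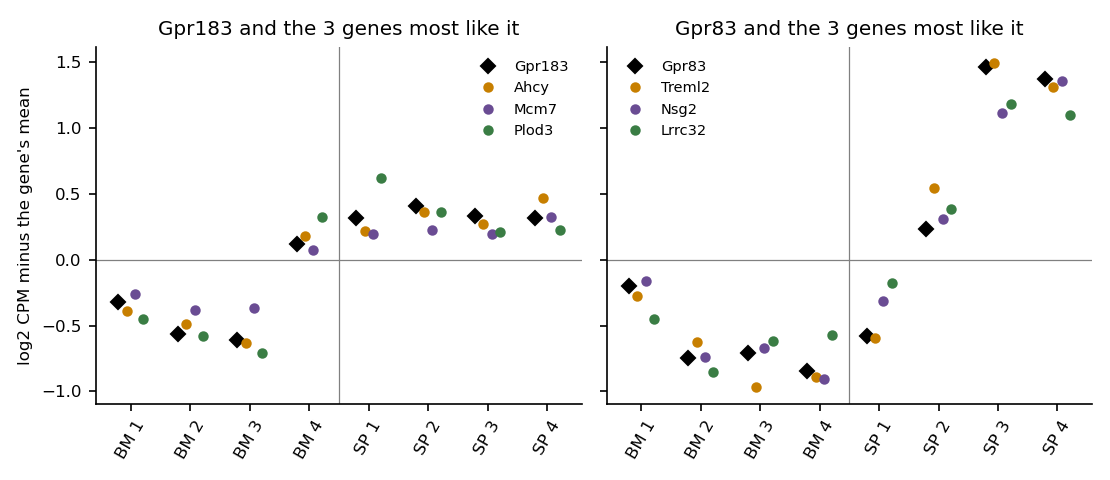
Log2 CPM minus the gene's own mean over 8 libraries (vertical axis) in each library for Gpr183 (left) and Gpr83 (right) with the 3 genes most like each; BM and SP stand for BM-Treg and SP-Treg. For Gpr183 and the genes most like it, BM-Treg replicate 4 lies above the genes' own means with the SP-Treg and the other BM-Treg lie below, and SP-Treg replicate 1 lies lowest of the SP-Treg for Gpr83 and the genes most like it.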

How the data were processed

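RNA of sorted FoxP3+ cells was sequenced single-end with 80 nt reads after amplification. Expected counts per gene and per transcript and FPKM per gene were deposited by the authors; the submitters' processing notes name cutadapt 1.9, STAR 2.5.2a and RSEM 1.2.30 on GRCm38, and the annotation version is not given in the sources used here. Samples were grouped by the tissue of their labels. The members and gene lists were chosen with earlier results of these data known.

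Expected counts were rounded to whole numbers and tested with edgeR 4.0.16 in R 4.3.3 (quasi-likelihood test, filterByExpr, TMM, no covariate, Benjamini-Hochberg adjustment over all genes tested, threshold 0.05). Standard errors and 95% intervals came from the test's F statistic, log2 CPM used a prior count of 2, and the scripts were tested on simulated data with known changes. Median totals of expected counts were 19025998 in BM-Treg and 13108535 in SP-Treg libraries, and 3 counts, the limit that a count of 0 allows, equalled between 0.131 and 0.251 CPM. No pair of replicates differed by as little as sampling noise (chi-square per degree of freedom between 14.6 and 88.5).

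Alternatives were DESeq2's size factors, DESeq2 1.42.0, limma-voom and limma-trend (limma 3.58.1) on log2(FPKM + 1) or log2(FPKM + 0.1), no filter beyond 1 count, at least 10 counts in every library, a term for batch, only batch 3, a stricter adjusted p of 0.01, a block for the replicate number and fits without each of the libraries. Chosen after seeing the data were the coding transcript of Ptger1 alone and BM-Treg replicates 3 and 4 alone.

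Genes were named if they were among the 9 receptor genes, passed the threshold or were the most abundant by FPKM in a pathway list, overlapped a receptor gene, or were among the 3 most like a called receptor gene or Gpr83; 2 genes that this rule names are not reported here. Marker and sex-linked genes served to check the labels, and Ptger3, Ptgs1, Ptgs2, Ptgdr, Ch25h, Cyp7b1, Hsd3b7, Pcsk1n, Gnas and Cpox were named after their values were seen. Gene models on exons were taken from GENCODE M21, whose coordinates were the same as in the tables for 5 of the 9 receptor genes.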

Additional observations from a re-analysis of the deposited data

Results flagged for a closer look

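In 56 genes, 112 groups of 4 libraries were tested for a single library far from the others with Dixon's test, and 5 groups held one, where chance gives about 1 in 20 groups. Ptger1 in BM-Treg was lowest in replicate 4, at 92.0 CPM, with the others between 108 and 111 CPM. Gpr183 in SP-Treg was highest in replicate 2, at 154 CPM, with the others between 144 and 146 CPM. Gpr132 in BM-Treg was lowest in replicate 2, at 83.6 CPM, with the others between 94.0 and 95.6 CPM. Cpox in SP-Treg was highest in replicate 1, at 51.0 CPM, with the others between 34 and 36.8 CPM. Impdh2 in BM-Treg was highest in replicate 4, at 10.7 CPM, with the others between 8.19 and 8.54 CPM. BM-Treg replicate 4, the only BM-Treg library of batch 3, was the library apart for 2 of these genes, and the part of batch in this was not tested.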

How the results depend on the processing

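Of 172 values of the receptor genes' log2 fold changes under the alternatives, 150 kept their direction and their side of the threshold, 17 kept their direction and no longer passed, 3 kept it and newly passed, and 2 turned. The values that turned were those of Gpr15 without BM-Treg replicate 1 (-0.04) and without SP-Treg replicate 4 (-0.01), and without each library in turn its value lay between -0.04 and 0.28. The number of genes called was 765 with log2(FPKM + 1) and 728 with log2(FPKM + 0.1), 258 with batch as a term, 79 in batch 3 alone, 312 with BM-Treg replicates 3 and 4 alone and 427 at an adjusted p of 0.01. DESeq2 called 1703 genes and 6 receptor genes, with Gpr83 and Gpr174 newly passing. Receptor genes called were 0 with batch as a term, 0 in batch 3 alone, 1 with BM-Treg replicates 3 and 4 alone and 2 at an adjusted p of 0.01. Pathway genes called were 11 with log2(FPKM + 0.1), 6 with batch as a term, 1 in batch 3 alone, 7 with BM-Treg replicates 3 and 4 alone and 5 at an adjusted p of 0.01. Fewer libraries or a stricter threshold entered several of these by construction, and beyond that the cause was not tested. Leaving out each library in turn gave between 690 and 1048 genes called, between 3 and 5 receptor genes and between 11 and 16 pathway genes. With the replicate number as a block, 948 genes, 4 receptor genes and 15 pathway genes were called. The deviations of same-numbered libraries from their group means had correlations of -0.106, 0.059, -0.176 and 0.04, so that the numbers were not taken to pair the samples. Ptger1 did not pass by its coding transcript alone, which holds few of its counts (between 9.94% and 23.1% per library).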
